A study of Mus musculus with 24 samples.

Results

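The change from subjective day to subjective night was followed in the retinal pigment epithelium (RPE) of mice with altered copies of the clock genes Per1 and Per2. The comparison sets 3 libraries of circadian time 19 (CT19) against 3 libraries of CT10, and these 6 of the 24 libraries of the series were taken by their labels for genotype and time. Both groups came from male mice of 6 weeks with the genotype label Per1-/-Per2Brdm1 and the strain label C57BL/6/J x 129 SvEvBrd, and they are called the mutant below. At each time 1 library was a pool of RPE from 2 eyes (numbered 3and5), and the libraries numbered 2 and 4 each came from 1 eye. The 6 wild type libraries of the same 2 times, of the same strain, sex and age and with no pool among them, are given beside the mutant. RPE was isolated by laser microdissection from snap-frozen eyes, and its RNA went into mRNA libraries. Whether each eye came from its own mouse is not stated, so p-values cover only the spread between libraries. The series asks what Per1 and Per2 contribute to the daily rhythm of this layer in taking up the tips of photoreceptors.

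The RPE is a single sheet of pigmented cells between the photoreceptors and the blood vessels of the choroid, and it engulfs shed outer segment tips in a daily burst. In the circadian clock the activators BMAL1 and CLOCK bind E-box sequences and switch on the Per and Cry genes, Nr1d1, Dbp and Ciart, whose products feed back on the loop. MHC class II molecules show peptides from engulfed material to helper T cells and are made mainly by macrophages, dendritic cells and B cells. Interferon raises MHC genes, the immunoproteasome and several families of GTPases in most cell types.

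The 6 libraries held 21062492 to 32066263 counts, with 19892 to 24072 genes detected and 2.17% to 4.75% of the counts in genes of the mitochondrial genome. Levels are given as CPM, read counts scaled to the effective library size from the TMM method of edgeR. CT10 is called day and CT19 night, and in each sentence the mutant libraries are given in the order number 2, pool 3and5, number 4, and the wild type libraries in the order 1, 2, 4. All 20 RPE markers were counted, with sums of 57525 to 70375 CPM at CT10 and 43332 to 71167 CPM at CT19. Markers of neighbouring cells were present too: the 19 rod markers summed to 38341 to 61744 CPM at CT10 and 54050.4 to 96577 CPM at CT19, and the 6 lens markers to 599 to 3289.7 and 1598 to 3318 CPM. In bulk RNA of this kind, fewer cells of a type and less RNA per cell cannot be told apart. Per1 counts were 76.9, 117.7 and 93.0 CPM by day and 101, 159.8 and 164 CPM by night, and Per2 counts were 93.1, 103 and 93.9 CPM by day and 75.4, 127.1 and 114.3 CPM by night. Both genes were thus counted in every mutant library. Per2Brdm1 is a partial deletion that leaves a transcript, the sources used here do not give the lesion in Per1, and counts over a whole gene do not show a missing piece, so these values do not check the labels.

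No gene passed between CT10 and CT19 in the mutant. Of 20275 genes tested with edgeR's quasi-likelihood test, 0 (0%) reached a Benjamini-Hochberg adjusted p under 0.05, and the smallest adjusted p was 0.0651, for H2-Aa. At an unadjusted p under 0.05 there were 795 genes (3.92%), of which 563 (2.78%) were lower and 232 (1.14%) higher at CT19. The median log2 fold change over all genes was 0.0014. DESeq2 on the same counts called 24 genes (0.118%), all lower at CT19, and 15 of those 24 belonged to the immune gene lists described below. These lists were chosen with earlier results of these data known, and their share of all genes was not counted. The 15 thus describe the calls and support nothing further. A genotype by time interaction, which asks whether the mutant's change differed from that of wild type, passed for 7 genes (0.0345%), 5 of them clock genes. In wild type 158 genes (0.779%) passed between the same times, 43 of them lower and the others higher at CT19.

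Of 8 clock genes that fell at night in wild type RPE, none passed in the mutant, where 0 of all 20275 genes passed. The log2 fold changes of these 8 genes in the mutant lay between -0.13 and 0.56. Among the 15 E-box and D-box clock genes the mutant's median log2 fold change was 0.13, with a range of -0.30 to 0.59 and 0 passing in edgeR's test. In wild type the median was -0.75, and 8 of the 15 fell: Per1, Per2, Per3, Nr1d1, Nr1d2, Ciart, Dbp and Tef. These 8 were picked by their wild type result, and 5 of them passed the interaction (Per2, Per3, Nr1d1, Ciart and Dbp). Per1 (log2 2.07 (SE 0.45), adjusted p 0.145 in edgeR's test), Nr1d2 and Tef did not, so a difference between genotypes is not shown for them. The sum of the 15 genes was 2225, 2189 and 2211 at CT10 and 2323, 2354 and 2325 at CT19 in CPM in the mutant, so all 3 night libraries lay slightly above all 3 day libraries. In wild type the sum ran from 2123 to 2518 CPM at CT10 and from 1237 to 1306 CPM at CT19.

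Ciart, a repressor of BMAL1 and CLOCK, showed the widest gap between genotypes among the clock genes (ENSMUSG00000038550, minus strand of GRCm38 chromosome 3 from 95878503 to 95882251). In the mutant it was at 24.6, 32.3 and 26.4 CPM by day and 28.7, 41.1 and 38.8 CPM by night. The night and day libraries overlapped. In wild type it was at 79.9, 36.5 and 49.4 CPM by day and 2.71, 2.73 and 3.25 CPM by night, with all night libraries far under all day libraries. The change was log2 0.38 (SE 0.37) in the mutant and log2 -4.25 (SE 0.43) in wild type, and the interaction was log2 4.63 (SE 0.55), with an adjusted p of 0.000433 by edgeR's quasi-likelihood fit, Benjamini-Hochberg adjusted as are all adjusted p given here.

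Per2, which encodes a repressor of the loop (ENSMUSG00000055866, minus strand of GRCm38 chromosome 1 from 91415982 to 91459324), was at 93.1, 103 and 93.9 CPM by day and 75.4, 127.1 and 114.3 CPM by night, as given above, against 158, 92.3 and 160.3 CPM by day and 30.9, 22.2 and 22.97 CPM by night in wild type. Its change was log2 0.13 (SE 0.30) in the mutant, with a 95% interval of -0.50 to 0.76, and log2 -2.43 (SE 0.32) in wild type. The night library numbered 2 was the lowest of the 6 mutant libraries and the pooled night library the highest. The Per2 interaction of log2 2.56 (SE 0.44) had an adjusted p of 0.0247 in edgeR's test. It missed the threshold with an adjusted p of 0.0743 to 0.163 when any of 9 libraries was left out, and was past it only without number 2 of mutant CT19, number 1 of wild type CT19 or number 2 of wild type CT10.

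Dbp, a D-box activator that carries the clock's output (ENSMUSG00000059824, plus strand of GRCm38 chromosome 7 from 45705088 to 45710203), was at 397, 367 and 431 CPM by day and 406, 340.3 and 435 CPM by night in the mutant. The groups overlapped and their means were 398 ± 32.04 and 394 ± 48.4 CPM (SD, n = 3). In wild type it was at 574, 462 and 458 CPM by day and 120.4, 161 and 161 CPM by night, with no overlap. Its change was log2 -0.02 (SE 0.21) in the mutant and log2 -1.76 (SE 0.21) in wild type, and the interaction of log2 1.74 (SE 0.30) passed with an adjusted p of 0.0202 in edgeR's test. Leaving out single mutant libraries moved the small Dbp change of the mutant between log2 -0.10 and 0.07.

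Nr1d1 encodes the nuclear receptor REV-ERB alpha, which represses Bmal1 transcription (ENSMUSG00000020889, minus strand of GRCm38 chromosome 11 from 98767932 to 98775333). It was at 153, 151 and 162 CPM by day and 161, 226 and 183 CPM by night in the mutant and at 195, 169 and 181 CPM by day and 83.6, 95.2 and 78.3 CPM by night in wild type. In the mutant the lowest night library lay just under the highest day library, and in wild type all night libraries lay under the day libraries. The change was log2 0.29 (SE 0.15) in the mutant against log2 -1.09 (SE 0.15), and the interaction was log2 1.38 (SE 0.21) with an adjusted p of 0.0057 in edgeR's test. Its exons overlap those of Thra on the other strand, and the strand setting of the counting is not given, so its counts are uncertain.

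Per3, the family member that the genotype label does not name (ENSMUSG00000028957, minus strand of GRCm38 chromosome 4 from 151003652 to 151044665), was at 96.3, 128.8 and 101 CPM by day and 102, 148 and 154 CPM by night in the mutant and at 175, 163 and 203 CPM by day and 60.5, 57.5 and 53.8 CPM by night in wild type. The mutant's groups overlapped, with number 2 the lowest at both times. The change was log2 0.31 (SE 0.26) in the mutant and log2 -1.65 (SE 0.26) in wild type. Its interaction of log2 1.96 (SE 0.36) had an adjusted p of 0.0378 in edgeR's test, and this exceeded 0.05 (0.0503 to 0.191) without any of 10 of the 12 libraries, staying under it only without number 2 of mutant CT19 or the pool of mutant CT10.

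The promoter windows of Ciart and Per3, which passed the interaction, are shown as examples that hold an E-box and a D-box. The windows run from 250 bases before to 50 after the RefSeq start on GRCm38.p6, and capitals mark the E-box CACGTG in Ciart (chr3:95882179-95882478, minus strand) and the D-box TTANGTAA in Per3 (chr4:151044616-151044915, minus strand).
Ciart: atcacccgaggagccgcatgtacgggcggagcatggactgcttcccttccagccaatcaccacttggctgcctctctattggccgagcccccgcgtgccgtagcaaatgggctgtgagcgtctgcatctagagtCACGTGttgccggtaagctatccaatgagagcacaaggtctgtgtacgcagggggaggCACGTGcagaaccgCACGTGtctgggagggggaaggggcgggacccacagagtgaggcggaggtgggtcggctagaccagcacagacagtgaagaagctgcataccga
Per3: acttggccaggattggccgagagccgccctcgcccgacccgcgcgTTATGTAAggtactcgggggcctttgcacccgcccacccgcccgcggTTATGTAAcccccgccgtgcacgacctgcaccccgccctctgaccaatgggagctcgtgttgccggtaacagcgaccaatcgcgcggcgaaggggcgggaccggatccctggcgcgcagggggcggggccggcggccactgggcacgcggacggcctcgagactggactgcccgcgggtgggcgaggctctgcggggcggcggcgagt
Ciart held 3 E-boxes, at -116 to -111, -58 to -53 and -44 to -39 from the start, and Per3 held 2 D-boxes, at -205 to -198 and -158 to -151. Both motifs were searched on both strands, and neither overlapped another motif searched. Of 32851 windows of this length over all genes, 7.15% held an E-box and 2.32% a D-box. Of the 14 windows of the E-box and D-box clock genes 6 held an E-box and 1, that of Per3 itself, a D-box. A match is a description of the letters only.

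The other members of the list did not pass in the mutant either. Per1 was log2 0.56 (SE 0.32), with night libraries of 101, 159.8 and 164 CPM that overlapped the day libraries, and Usp2, a deubiquitinase, was log2 0.59 (SE 0.23), at 87.5, 89.3 and 103 CPM by day and 112.6, 165 and 145 CPM by night. Usp2 was the only member of the list higher in all 3 night libraries and the only one at an unadjusted p under 0.05, where none was without day number 2 or the pool by night, and 3 were higher and 1 lower without night number 2. Nr1d2, the second REV-ERB gene, lay lower in all 3 night libraries, at log2 -0.13. Cry1 (0.19), Cry2 (0.22), Bhlhe40 (-0.30), Bhlhe41 (0.00), Tef (-0.04), Hlf (-0.09) and Wee1 (-0.18) overlapped between the times on the log2 scale given.

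In the Bmal1 limb, whose genes answer to REV-ERB and ROR receptors, the mutant again showed no passing gene among 8, with a median of log2 0.15. Arntl, which encodes BMAL1, was at 22.8, 27.1 and 30.5 CPM by day and 26.2, 36.8 and 23.9 CPM by night, or log2 0.11 (SE 0.31). In wild type it rose at night by log2 1.38 (SE 0.32), from 17.8, 21.2 and 25.9 to 74.8, 49.7 and 43.9 CPM. Nfil3, a repressor at D-boxes, was at 8.99, 6.64 and 7.52 CPM by day and 7.13, 7.61 and 8.04 CPM by night in the mutant, with overlap. In wild type Nfil3 rose by log2 1.61 (SE 0.24), to 21.7, 20.2 and 15.6 CPM at CT19. The interactions of Arntl (log2 -1.26 (SE 0.44), adjusted p 0.282) and Nfil3 (log2 -1.64 (SE 0.33), adjusted p 0.101) did not pass in edgeR's test. Clock (-0.18), Rora (0.21), Rorb (0.20), Arntl2 (-0.40) and Npas2 (1.10) overlapped between the times, the last 2 at under 3 CPM in every mutant library. The 10 clock kinases and ubiquitin ligases had a median of log2 0.02, with Gsk3b at -0.06 and Csnk1d at 0.10.

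**Figure D1:**
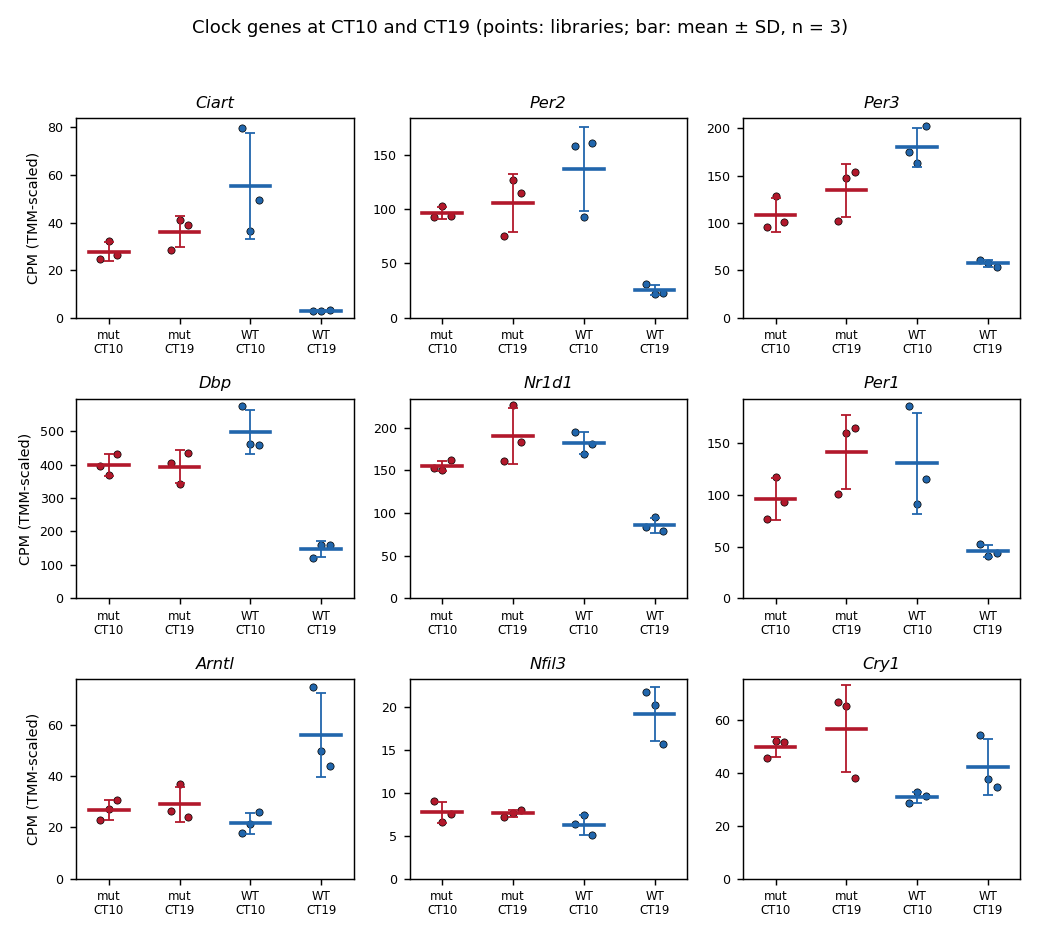
CPM of 9 clock genes in each library of the mutant (red) and wild type (blue) at CT10 and CT19, on linear axes from 0. Points are libraries, thick bars group means and thin bars SD (n = 3). Ciart, Per2, Per3, Dbp and Nr1d1 are low in wild type at CT19, while the mutant's points overlap between the times in all 5.

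Rasl11a, a small GTPase of the Ras family, and the processed pseudogene Gm9176 also passed the interaction. Rasl11a (ENSMUSG00000029641, plus strand of GRCm38 chromosome 5 from 146845071 to 146847726) was at 10.8, 9.80 and 12.7 CPM by day and 9.70, 9.41 and 10.4 CPM by night in the mutant and at 6.21, 5.47 and 4.83 CPM by day and 18.8, 20.2 and 18.1 CPM by night in wild type. It rose at night in wild type by log2 1.79 (SE 0.22), while the mutant's libraries overlapped at log2 -0.17 (SE 0.22). The interaction was log2 -1.96 (SE 0.31), with an adjusted p of 0.00743 in edgeR's test, and it missed the threshold without number 4 of mutant CT10 (0.0697) or number 4 of wild type CT10 (0.0599). Gm9176 (ENSMUSG00000112850, minus strand of GRCm38 chromosome 10 from 128549694 to 128550813) averaged under 5 CPM and is named after its values were seen. It was at 1.56, 1.79 and 1.41 CPM by day and 2.48, 3.23 and 2.61 CPM by night in the mutant and at 5.65, 1.81 and 4.05 CPM by day and 0, 0.166 and 0.0784 CPM by night in wild type, with an interaction of log2 6.28 (SE 1.12) (adjusted p 0.0323 in edgeR's test) that missed the threshold in 9 of the 12 fits with 1 library left out.

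Antigen presentation genes led the list of lower night values in the mutant, although none passed in edgeR's test. Of the 10 genes of smallest p among those lower at CT19 with at least 5 CPM, 9 belonged to the MHC and interferon lists: H2-Aa, Irgm1, Psmb8, Iigp1, H2-Eb1, Cd74, Tap1, H2-Q4 and Gbp2. The other was Igfbp4, which encodes a binding protein of insulin-like growth factors. All 10 were among the 24 genes that DESeq2 called (0.118% of all genes). In all 10 the 3 night libraries lay under the 3 day libraries, as they did for 7.0% of all genes. These genes were picked by this contrast, so the count describes them and supports nothing further.

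Of the 10 genes in the list of MHC class II chains and the invariant chain, 8 were counted well enough to be tested. All 8 had negative log2 fold changes (10095 of all 20275 genes did), with a median of -2.12 against 0.0014 over all genes. Of the 8, 5 were at an unadjusted p under 0.05, a level that 2.78% of all genes reached in that direction. In wild type the list's median was -0.79. The sum of the list was 152, 414 and 343 at CT10 and 61.0, 72.0 and 87.5 at CT19 in CPM, so the night libraries were close together and the day libraries spread widely, with number 2 the lowest of them.

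H2-Aa, the alpha chain of the I-A molecule (ENSMUSG00000036594, minus strand of GRCm38 chromosome 17 from 34282744 to 34287823), was at 29.5, 76.7 and 60.3 CPM by day and 9.06, 10.99 and 14.3 CPM by night. Every day library exceeded every night library, and day number 2 stood nearer to the night than the others did. The change was log2 -2.28 (SE 0.37), with a 95% interval of -3.05 to -1.50 and an adjusted p of 0.0651 in edgeR's test. In the other mutant groups H2-Aa was at 13.1 to 22.6 CPM (CT22) and 25.2 to 31.9 CPM (CT1). The adjusted p was 0.00231 without day number 2, and 0.103 to 0.669 without any of the other 5 libraries.

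Its partner H2-Ab1, the beta chain of I-A, was at 18.5, 59.2 and 52.3 CPM by day and 6.09, 13.9 and 11.7 CPM by night, or log2 -2.04 (SE 0.48). H2-Eb1, the beta chain of I-E (ENSMUSG00000060586, plus strand of GRCm38 chromosome 17 from 34305867 to 34316674), was at 24.7, 67.2 and 58.2 CPM by day and 5.93, 10.3 and 12.1 CPM by night, or log2 -2.40 (SE 0.49). Cd74, the invariant chain that guards the peptide groove, was at 62.7, 187 and 152 CPM by day and 20.3, 29.1 and 37.7 CPM by night, or log2 -2.20 (SE 0.44). The 3 genes shared the pattern of H2-Aa, with every night library under every day library, as for 7.0% of all genes. In all 3 genes the pool and number 4 were high by day, and number 2 lay between them and the night libraries. The adjusted p of H2-Ab1, H2-Eb1 and Cd74 in edgeR's test were 0.46, 0.208 and 0.208. H2-DMa, a chain of the peptide exchanger H2-DM, was at 2.22, 5.77 and 4.06 CPM by day and 1.20, 0.931 and 1.66 CPM by night, also without overlap. H2-DMb1 (-0.29) overlapped between the times, as did H2-Ob (-0.57), while H2-DMb2 (-3.05) was at most 2.29 CPM in any of the 6 libraries.

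Of 14 class II regulators and antigen processing genes, 2 were lower at an unadjusted p under 0.05 (2.78% of all genes), and 1 without the pool by day or by night. The median was log2 0.00. Ciita, the master activator of class II genes, was at 1.60, 8.88 and 3.93 CPM by day and 0.481, 0.745 and 0.954 CPM by night, or log2 -2.72 (SE 0.69), and was chosen after its values were seen. Its night libraries all lay under 1 CPM. Ctsb and Ctsl, lysosomal proteases of highest CPM in the list, were log2 0.05 (SE 0.25) and log2 -0.12 (SE 0.25), with overlapping libraries.

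The promoter windows of H2-Aa (chr17:34287774-34288073, minus strand) and H2-Eb1 (chr17:34305617-34305916, plus strand) are shown because both were among the 10 genes of smallest p lower at night, and that of Irgm1 (chr11:48871371-48871670, minus strand) because it led the interferon list. Capitals mark the CCAAT box (ATTGG on the other strand) in both class II genes, the CRE TGACGTCA in H2-Aa and the interferon-stimulated response element (ISRE), searched as TTTC, any 2 bases, TTTC and lying on the other strand, in Irgm1.
H2-Aa: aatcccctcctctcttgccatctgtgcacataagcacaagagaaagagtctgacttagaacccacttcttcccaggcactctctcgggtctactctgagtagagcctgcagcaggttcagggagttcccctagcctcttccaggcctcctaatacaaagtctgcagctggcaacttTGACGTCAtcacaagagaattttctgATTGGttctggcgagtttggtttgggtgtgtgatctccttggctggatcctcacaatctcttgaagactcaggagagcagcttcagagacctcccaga
H2-Eb1: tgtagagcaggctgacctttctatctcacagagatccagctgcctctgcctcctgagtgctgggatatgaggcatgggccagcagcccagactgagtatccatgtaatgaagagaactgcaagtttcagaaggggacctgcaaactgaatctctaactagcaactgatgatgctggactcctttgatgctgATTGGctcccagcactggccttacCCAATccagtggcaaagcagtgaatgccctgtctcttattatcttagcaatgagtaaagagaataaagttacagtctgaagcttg
Irgm1: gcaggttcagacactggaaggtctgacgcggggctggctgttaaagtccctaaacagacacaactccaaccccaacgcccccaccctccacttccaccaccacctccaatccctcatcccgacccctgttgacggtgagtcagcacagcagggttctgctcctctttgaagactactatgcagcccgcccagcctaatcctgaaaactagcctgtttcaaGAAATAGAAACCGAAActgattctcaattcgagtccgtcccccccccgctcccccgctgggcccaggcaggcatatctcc
In H2-Aa the CRE lay at -74 to -67 and the CCAAT box at -48 to -44, and in H2-Eb1 CCAAT boxes lay at -59 to -55 and -35 to -31. In Irgm1 a pair of overlapping ISRE matches lay at -30 to -21 and -24 to -15. CCAAT was in 8 of 9 windows of the class II list and in 37.4% of all windows, and the ISRE was in 18 of 35 windows of the interferon list and in 3.44% of all windows. The CRE was in 1.79% of all windows. These are counts of letters in a short stretch and not of bound sites.

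MHC class I genes and the peptide-loading machinery had a median of log2 -0.76 over 23 genes, against -0.20 in wild type. None passed in edgeR's test, and DESeq2 called 4 (0.118% of all genes). At an unadjusted p under 0.05 in edgeR's test, 14 were lower at night (2.78% of all genes), and none was higher. Psmb8, a catalytic subunit of the immunoproteasome, was at 7.30, 14.2 and 8.37 CPM by day and 2.89, 2.76 and 2.90 CPM by night, or log2 -1.80 (SE 0.34) with an adjusted p of 0.0726 in edgeR's test. The night libraries hardly differed and the pool by day stood highest. Tap1, a subunit of the peptide transporter, was at 9.70, 28.6 and 14.1 CPM by day and 4.77, 5.19 and 5.39 CPM by night, or log2 -1.77 (SE 0.38), and overlaps Psmb9, so its counts are uncertain. H2-Q4, a nonclassical heavy chain, was at 18.4, 35.0 and 20.9 CPM by day and 8.14, 8.10 and 8.62 CPM by night, or log2 -1.58 (SE 0.34), and shares sequence with other heavy chain genes. The adjusted p of Tap1 and H2-Q4 in edgeR's test was 0.208 for both.

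Among members chosen after their values were seen, B2m, the light chain common to class I molecules, was at 417, 534 and 390.0 CPM by day and 288, 239 and 266 CPM by night, or log2 -0.76 (SE 0.23). The heavy chains H2-K1 and H2-D1 were log2 -0.90 (SE 0.23) and log2 -0.97 (SE 0.24), and Nlrc5, the activator of class I genes, was at 4.14, 13.8 and 4.49 CPM by day and 0.441, 1.24 and 0.995 CPM by night. In all 4 the night libraries lay under the day libraries, as for 7.0% of all genes. The members of highest CPM, the general chaperones Calr (0.02) and Pdia3 (-0.13), overlapped between the times.

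Interferon-induced genes were tested for 42 members. Their median was log2 -0.96 in the mutant and -0.09 in wild type, 41 had negative values (10095 of all 20275 genes did), and 22 were at an unadjusted p under 0.05 and lower at night (2.78% of all genes). None passed in edgeR's test, and DESeq2 called 5 (0.118% of all genes). With Oas1a, which had no counts at CT19, put at the bound of 3 counts over the 3 libraries, the median was the same. In the interaction 15 of the 42 were negative at an unadjusted p under 0.05, a level that 7.88% of all genes reached in that direction.

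Irgm1, a GTPase that guards against intracellular microbes (ENSMUSG00000046879, minus strand of GRCm38 chromosome 11 from 48861968 to 48871683), was at 37.1, 53.8 and 32.2 CPM by day and 21.8, 13.3 and 11.8 CPM by night. The night libraries lay below the day libraries and the pool was the highest. The change was log2 -1.39 (SE 0.26) with a 95% interval of -1.92 to -0.86 and an adjusted p of 0.0726 in edgeR's test. It was 0.0409 without day number 2 and 0.0295 without night number 2, and 0.0939 to 0.683 without any of the other 4 libraries. In wild type Irgm1 was at 17.5, 21.9 and 15.6 CPM by day and 18.2, 20.8 and 23.2 CPM by night, where the groups overlapped. The interaction of log2 -1.57 (SE 0.36) did not pass (adjusted p 0.145 in edgeR's test), but it passed without number 2 of mutant CT19.

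Iigp1 and Gbp2, 2 further interferon-induced GTPases, varied most by day. Iigp1 was at 4.72, 31.8 and 11.6 CPM by day and 1.68, 1.21 and 2.32 CPM by night, or log2 -3.21 (SE 0.64), and Gbp2 at 6.54, 17.5 and 5.38 CPM by day and 2.52, 1.58 and 1.66 CPM by night, or log2 -2.35 (SE 0.52). In both the pool was far above the other day libraries. The chemokine Cxcl10, chosen after its values were seen, was at 1.69, 13.9 and 5.90 CPM by day and 0, 0.435 and 0.0415 CPM by night. The transcription factor Irf1, chosen in the same way, was log2 -0.87 (SE 0.30), with no overlap. Lgals3bp (-0.36) and Ifi27 (-0.15), the members of highest CPM, overlapped between the times.

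Igfbp4 was at 334, 257 and 277 CPM by day and 83.1, 125.4 and 101 CPM by night, or log2 -1.49 (SE 0.27) with an adjusted p of 0.0726 in edgeR's test. Its day libraries lay wholly above the night libraries. In wild type it was at 263, 279.5 and 195 CPM by day and 193, 128.2 and 329 CPM by night, with overlap, and the interaction of log2 -1.30 (SE 0.38) did not pass (adjusted p 0.228). Id2, an inhibitor of helix-loop-helix factors chosen after its values were seen, was at 119.9, 110.97 and 111.7 CPM by day and 50.1, 68.9 and 63.8 CPM by night, or log2 -0.91 (SE 0.21).

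For the antigen presentation genes the difference between genotypes was tested and did not pass. The interaction was log2 -1.53 (SE 0.51) for H2-Aa (adjusted p 0.267 in edgeR's test), log2 -1.42 (SE 0.60) for Cd74, log2 -0.67 (SE 0.46) for Psmb8 and log2 -0.71 (SE 0.53) for Tap1. H2-Aa in wild type was at 20.9, 29.7 and 19.2 CPM by day and 7.71, 16.2 and 17.7 CPM by night, all night libraries again under all day libraries, or log2 -0.75 (SE 0.36). Psmb8 in wild type was at 9.90, 9.31 and 4.34 CPM by day and 3.18, 3.19 and 4.35 CPM by night, or log2 -1.13 (SE 0.33). Over all genes the median interaction was log2 -0.11 with TMM scaling and 0.004 with the RLE scaling of edgeR, and interaction values are to be read against that shift.

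**Figure D2:**
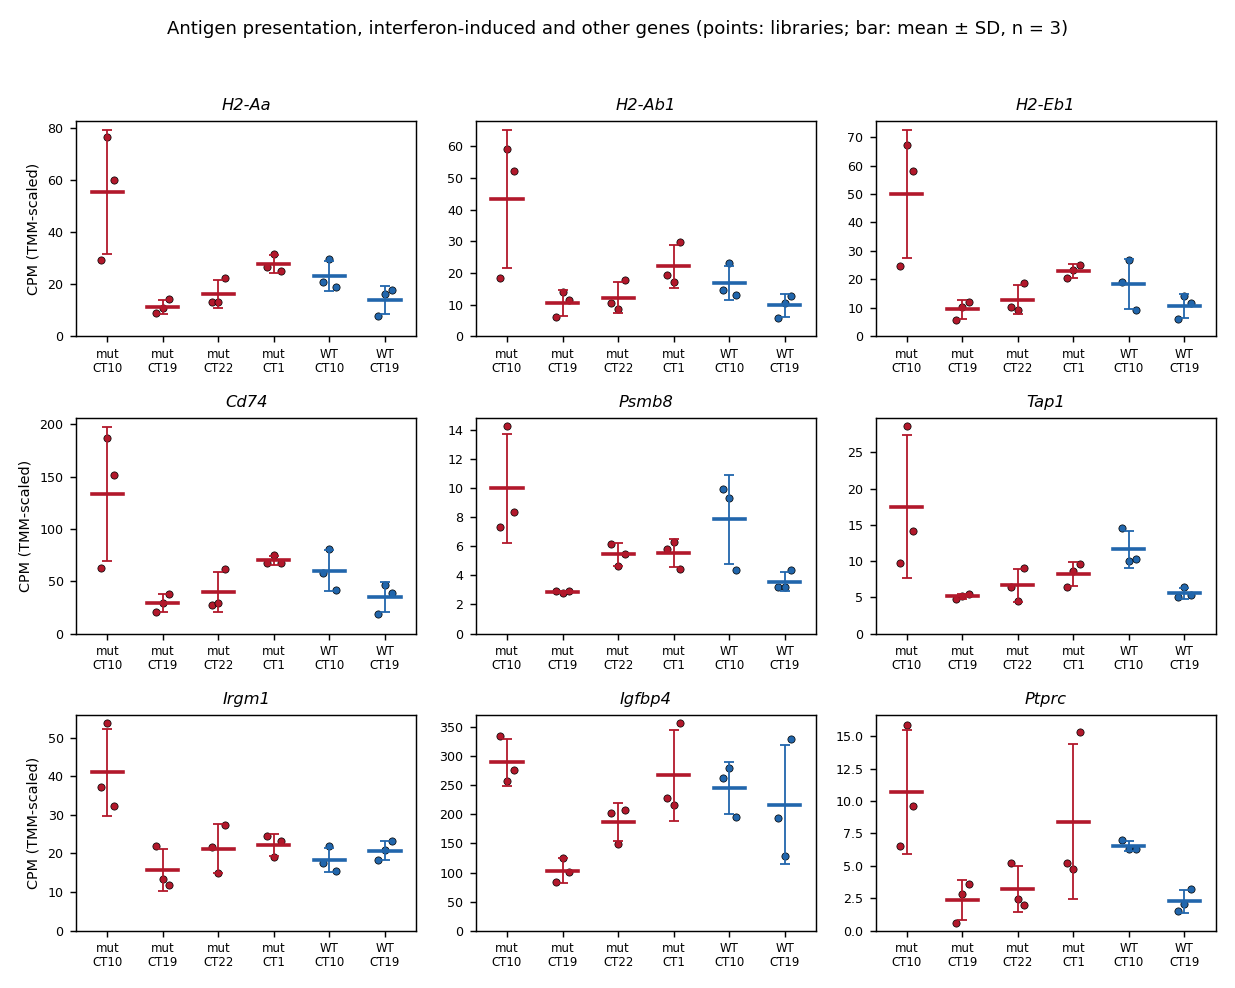
CPM of 9 genes in each library of the mutant (red) at 4 times and of wild type (blue) at CT10 and CT19, on linear axes from 0 that differ between panels. Points are libraries, thick bars group means and thin bars SD (n = 3). The mutant's CT10 group is the most spread for the class II genes, with number 2 the lowest of its 3 points, and every CT19 point lies under every CT10 point for the class II genes shown.

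Complement, cytokine and innate sensing genes had smaller medians below 0. The 20 complement genes had a median of log2 -0.56, with 6 lower and 1 higher at an unadjusted p under 0.05 (2.78% and 1.14% of all genes), and 0 higher without night number 2 or either pool. Clu, a regulator of the cascade and among the members of highest CPM, was log2 0.01 (SE 0.32), with overlap. Chosen after their values were seen, C1qa was at 14.9, 11.7 and 16.3 CPM by day and 9.34, 2.76 and 5.56 CPM by night and C1qb at 13.3, 15.4 and 22.9 CPM by day and 5.97, 3.17 and 7.55 CPM by night. Both encode chains of the starter C1q, made chiefly by macrophages, and neither overlapped between the times. The 24 chemokines, cytokines and adhesion genes had a median of log2 -0.69, and all 24 were negative (10095 of all 20275 genes were). Of these 24 genes 6 were lower at an unadjusted p under 0.05 (2.78% of all genes), and 3 without night number 2. Their members of highest CPM, Mif and Cxcl12, were log2 -0.28 (SE 0.18) and log2 -0.46 (SE 0.37). The median was unchanged with Ccl8, at 0 in the night libraries, put at its bound. The 21 innate sensing and NF-kB genes had a median of log2 -0.48. Of these 21 genes 5 were lower at an unadjusted p under 0.05 (2.78% of all genes). That count was 2 without night number 2 and 3 without the pool by night. Tnfaip3 (0.37) and Irak1 (0.03) were the members of highest CPM in that list.

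Markers of immune cells were mostly lower at night too, with none passing in edgeR's test. DESeq2 called 2 of them, Ptprc and Igkc (0.118% of all genes). Of 20 macrophage and microglia markers 18 were negative (10095 of all 20275 genes were), with a median of log2 -1.21 (-0.90 in wild type). At an unadjusted p under 0.05 in edgeR's test, 8 were lower (2.78% of all genes). Ptprc, the leukocyte antigen CD45, was at 6.54, 15.9 and 9.61 CPM by day and 0.601, 2.86 and 3.61 CPM by night, and Tyrobp, an adaptor of myeloid receptors, at 6.81, 9.02 and 12.4 CPM by day and 3.53, 2.20 and 3.57 CPM by night. Both were chosen after their values were seen, and in both the groups were apart. Lyz2, a macrophage lysozyme, was at 32.03, 62.2 and 49.9 CPM by day and 18.2, 13.4 and 33.1 CPM by night, with overlap.

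Csf1r, the receptor for the macrophage growth factor CSF1, departed from this pattern at 470.5, 394 and 368 CPM by day and 468, 322 and 480.2 CPM by night, or log2 0.04 (SE 0.21). Its exons overlap Hmgxb3, so its counts are uncertain. The sum of all 20 macrophage markers was 567, 546 and 514 at CT10 and 526, 362 and 559 at CT19 in CPM and overlapped between the times. Without Csf1r, a split made after the values were seen, it was 96.7, 152 and 146 at CT10 and 57.8, 40.2 and 78.6 at CT19 in CPM, with every night library under every day library. In wild type the sum without Csf1r ran from 64.5 to 144 CPM at CT10 and from 42.2 to 67.9 CPM at CT19.

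The other leukocyte lists were counted at low levels. Dendritic cell markers summed to 14.5, 29.1 and 25.8 at CT10 and 10.2, 17.8 and 15.7 at CT19 in CPM, and T and NK cell markers to 6.49, 22.2 and 4.66 at CT10 and 1.92, 3.35 and 4.35 at CT19. The 7 B cell markers summed to 15.6, 70.0 and 96.97 at CT10 and 6.49, 14.0 and 9.04 at CT19 in CPM, with every night library under the day libraries. They had a median of log2 -0.86, with 5 negative and 2 positive values. At an unadjusted p under 0.05, 2 members were lower (2.78% of all genes), and 1 without day number 4. Of the 7, only Igkc did not overlap between the times. Igkc, the kappa light chain of antibodies, was at 5.03, 51.5 and 51.2 CPM by day and 2.24, 3.76 and 1.29 CPM by night, and Ighm, the heavy chain of IgM, at 4.67, 8.20 and 39.7 CPM by day and 0.401, 4.91 and 3.36 CPM by night. The pool by day was the highest library for dendritic, T and NK cell markers and Igkc, and day number 4 for the B cell sum and Ighm, and day number 2 lay among the night libraries for dendritic markers and Ighm. Neutrophil markers summed to 1.91, 21.0 and 25.8 at CT10 and 0.16, 1.15 and 4.35 at CT19, with day number 2 again among the night libraries. Mast cell markers summed to 43.3, 31.97 and 37.2 at CT10 and 27.0, 10.8 and 9.12 at CT19, with all day libraries above the night libraries. No marker of these cells was at 0 in all 6 libraries. The part of these cells in the antigen presentation and interferon values was not tested.

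**Figure D3:**
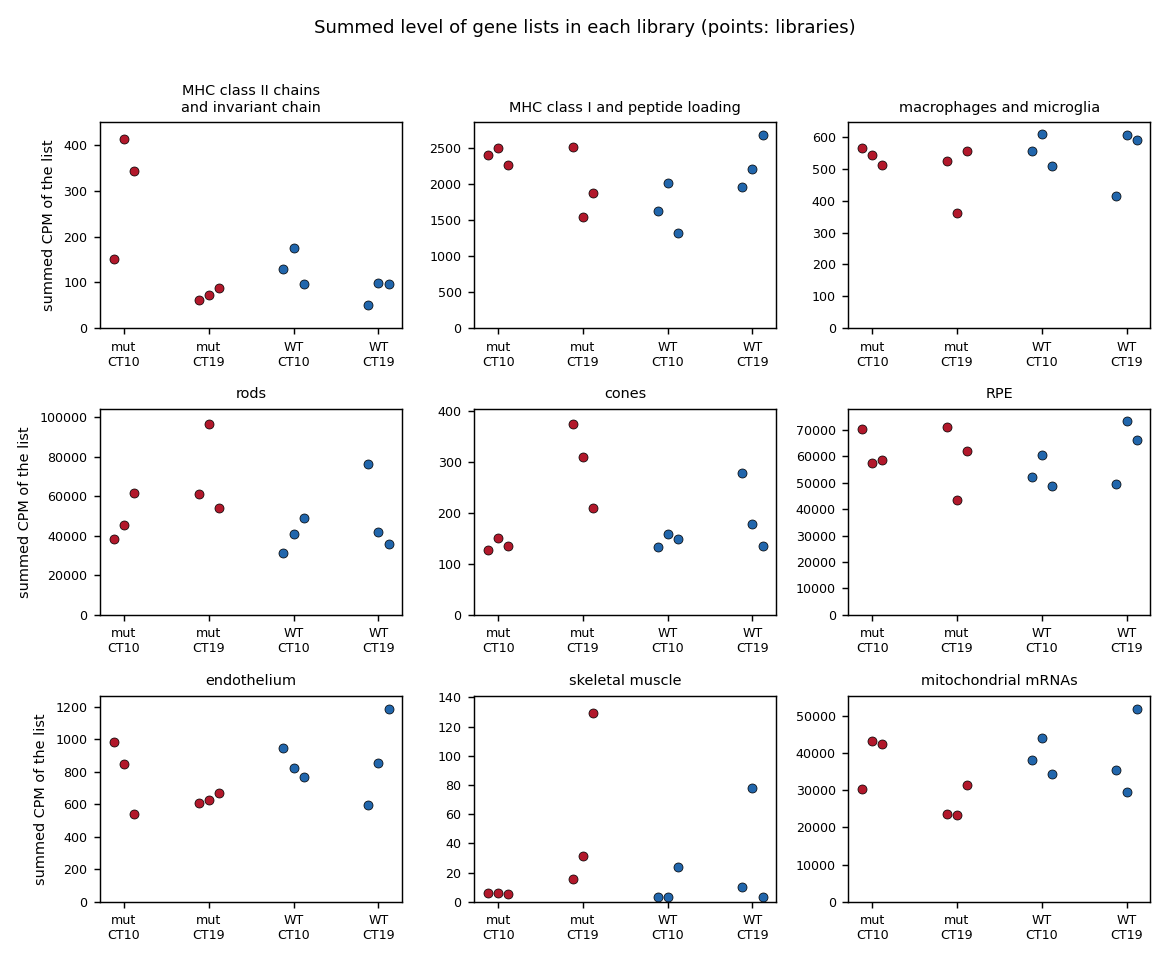
Summed CPM of 9 gene lists in each library of the mutant (red) and wild type (blue) at CT10 and CT19, on linear axes from 0. Points are libraries. In the mutant the class II sum is lower in every CT19 library than in every CT10 library, the cone sum is higher in all 3, and the sums of the RPE markers and of all 20 macrophage markers overlap.

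Photoreceptor transcripts pointed the other way. All 19 rod markers and all 10 cone markers had positive log2 fold changes in the mutant, as had 10180 of all 20275 genes. The rod and cone medians were 0.43 and 0.85 (0.39 and 0.54 in wild type). None passed, and 4 and 5 were at an unadjusted p under 0.05, a level that 1.14% of all genes reached in that direction. Leaving out single libraries gave 1 to 5 of either list. The rod count was 1 without night number 2 or either pool and 2 without day number 2, and the cone count was 1 without the pool by night and 3 without number 2 of either time or the pool by day. Cone markers summed to 127.2, 151 and 135 at CT10 and 375, 310.3 and 210.1 at CT19 in CPM, with no overlap, and rod markers to 38341, 45370.3 and 61744 at CT10 and 60818, 96577 and 54050.4 at CT19, with overlap. With only the single-eye libraries the rod median was 0.01.

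The rod transducin Gnat1 was at 11072, 15109.7 and 20304 CPM by day and 16360.2, 30757 and 15455 CPM by night, or log2 0.43 (SE 0.40), with overlap. The cone genes Opn1sw, the short-wavelength opsin, and Gnat2, the cone transducin, were at 35.8, 41.1 and 28.9 CPM by day and 183, 85.2 and 43.1 CPM by night and at 32.4, 27.9 and 30.2 CPM by day and 56.0, 49.6 and 41.1 CPM by night. In both genes every night library lay above every day library, as for 4.12% of all genes. Rbp3, the retinoid carrier that photoreceptors secrete, was at 783, 801 and 961 CPM by day and 2599, 2358 and 1329 CPM by night, or log2 1.30 (SE 0.40). Their part in other results was not tested.

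The 10 genes of smallest p among those higher at night had adjusted p of 0.633 or more in edgeR's test. Photoreceptor genes among them were Rpgrip1, a protein of the connecting cilium at log2 0.92 (SE 0.24), Rbp3 and Opn1sw. Rpgrip1 was at 164, 275 and 167 CPM by day and 291, 489 and 363 CPM by night and shares bases with Supt16, as 1700018L02Rik does with Ak3. The neuronal genes Aplp1 (1.43), Scamp5 (0.72) and Slc1a2 (0.97), a glutamate transporter, were followed by Plekhd1 (0.67) and the little-described Gm49153 (1.84), 1700018L02Rik (1.17) and 4933429O19Rik (1.35). Aplp1 and 4933429O19Rik overlapped between the times, and the other 8 did not. Of all genes 4.12% lay higher in every night library. These 10 genes were picked by this contrast, so the count describes them and supports nothing further.

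All 10 skeletal muscle markers had positive log2 fold changes in the mutant (10180 of all 20275 genes did). Their median was 4.43 (1.85 in wild type). None passed, and 6 were higher at an unadjusted p under 0.05 (1.14% of all genes), or 0 to 6 when single libraries were left out. In 8 of the 10 every night library lay above every day library, as for 4.12% of all genes. The sum of the 10 was 5.83, 6.14 and 5.17 at CT10 and 15.5, 31.5 and 129.1 at CT19 in CPM, highest in night number 4. Acta1, the actin of skeletal muscle, was at 0.712, 0.366 and 0.128 CPM by day and 1.32, 5.46 and 22.4 CPM by night. Such muscle lies outside the eye wall, and the sum in wild type reached 78.2 CPM in 1 night library. Lens crystallins varied within groups, with Cryaa at 1326, 941 and 176 CPM by day and 1287, 983 and 670.1 CPM by night and Crybb2 at 0.20 on the log2 scale. In wild type the lens sum was 4380 to 28906 CPM at CT10 and 954 to 2247 CPM at CT19, with a median of log2 -3.16 (0.12 in the mutant). The 21 inner retina neuron markers had a median of log2 0.08 in the mutant and 1.22 in wild type. There 14 were higher at an unadjusted p under 0.05, as were 2482 of all 20275 genes. The part of such tissue in other results was not tested. Vascular lists were lower or level: the 12 endothelial markers had a median of log2 -0.41 with 0 at an unadjusted p under 0.05 but 6 without day number 4 (median -0.64) and 1 without night number 4, Plvap at -0.05 and Flt1 at -0.46. Of 10 mural cell markers 3 were lower at that level (2.78% of all genes). Rgs5 was among them, at 354, 258 and 143 CPM by day and 120.3, 118.8 and 112.6 CPM by night, while Acta2 was log2 -0.01 (SE 0.27). Fibroblast, melanocyte, Schwann cell and blood lists had medians of log2 -0.29, -0.14, -0.24 and -0.29.

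Among genes of the RPE's own work none passed between the times in the mutant. The 20 RPE markers had a median of log2 -0.13, with Ttr, a carrier of thyroid hormone and retinol, at -0.18 and the retinal isomerase Rgr at 0.09. The 14 visual cycle genes had a median of -0.05, and Rpe65, the isomerohydrolase that remakes 11-cis-retinol, was at 6336, 4869 and 4802 CPM by day and 7229, 3004 and 4469.6 CPM by night. The pooled night library was the lowest and night number 2 the highest of the 6, so the groups overlapped at log2 -0.12 (SE 0.30).

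For outer segment uptake the 29 genes had a median of log2 -0.03, with 2 lower and 1 higher at an unadjusted p under 0.05. Of all genes 2.78% and 1.14% were, and the list's counts are too small to be set against those shares. These counts ran from 1 to 4 and from 0 to 1 when single libraries were left out, with 4 without night number 2 or night number 4. Named after their values were seen, the 3 genes were Axl (-0.78), a receptor tyrosine kinase, Anxa5 (-0.50), which binds phosphatidylserine, and Mfge8 (0.50), the bridging ligand of the integrin route. Mfge8 was at 89.1, 75.6 and 87.5 CPM by day and 142, 119.9 and 95.4 CPM by night, with all night libraries above the day libraries. Mertk, the receptor that drives ingestion and was also chosen afterwards, was log2 0.12 (SE 0.20). The members of highest CPM were Tulp1 (0.45) and Lrp1 (-0.12).

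The 37 phagosome and lysosome genes and the 23 autophagy genes had medians of log2 0.03 and 0.01, with 0 of either list at an unadjusted p under 0.05 or passing in edgeR's test. Without night number 2, 3 and 1 members were at that unadjusted level, and 1 autophagy gene without day number 2 or night number 4. In wild type the medians were 0.46 and 0.36. Psap and Ctsd, a saposin precursor and a protease of the lysosome, were log2 0.08 (SE 0.33) and log2 0.08 (SE 0.28), and the autophagy genes Sqstm1 and Gabarapl1 were log2 -0.07 (SE 0.20) and log2 -0.01 (SE 0.22). Melanogenesis had a median of -0.15, with Dct at -0.04 and Tyrp1 at -0.24, and ion and water transport one of -0.01, with Bsg at -0.01 and Slc2a1 at 0.00. Pmel, the fibril protein of melanosomes, was at 416, 381 and 393 CPM by day and 338, 174 and 267 CPM by night in the mutant, with every night library under the day libraries, and at 342, 186 and 183 CPM by day and 1299, 429 and 472 CPM by night in wild type, where it rose by log2 1.63 (SE 0.36). Its interaction of log2 -2.24 (SE 0.50) did not pass (adjusted p 0.145 in edgeR's test).

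Energy and stress genes followed, again with none passing. The 12 mRNAs of the mitochondrial genome had a median of log2 -0.57, all negative (10095 of all 20275 genes were). With the 1 member that was not tested they summed to 30174, 43257 and 42255 at CT10 and 23535, 23299 and 31456 at CT19 in CPM, where night number 4 exceeded day number 2. The subunit mt-Co1 of cytochrome oxidase was log2 -0.71 (SE 0.26) and mt-Cytb log2 -0.53 (SE 0.26). The 48 nuclear genes of oxidative phosphorylation had a median of -0.16, with Atp5b and Atp5a1 at 0.15 and 0.06. Of these 48 genes 6 were at an unadjusted p under 0.05, all lower (2.78% of all genes). The 50 cytosolic ribosomal protein genes had a median of -0.35, with Rpl4 at -0.11 and Rpl8 at -0.20. Of these 50 genes 49 were negative (10095 of all 20275 genes were) and 8 were lower at that level (2.78% of all genes). Without single libraries the ribosomal count ran from 0 to 11, at 0 without night number 2, 1 without day number 4, and 2 and 3 without the pool by day and by night. The count of oxidative phosphorylation was 2 without day number 4 and 3 without the pool by night. Ribosomal and mitochondrial genes have near-identical copies elsewhere in the genome, so their counts are uncertain.

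Glycolysis stood at log2 0.22 (Aldoa 0.17, Pkm 0.60), fatty acid oxidation at -0.02 and cholesterol synthesis at 0.01 (Sqle -0.43, Msmo1 -0.01). Heat shock genes had a median of -0.02 (Hsp90aa1 0.07), ER stress genes -0.01 (Hspa5 0.02), glucocorticoid-induced genes -0.04 (Sgk1 0.13) and antioxidant genes -0.14 (Gpx4 -0.29). The 6 cold-inducible genes were all positive (10180 of all 20275 genes were), with a median of 0.40 against -0.33 in wild type. Among them the splicing factor Srsf5 was at 228, 433 and 280.0 CPM by day and 262, 518 and 612 CPM by night, with overlap. The 25 immediate early genes had a median of -0.39, with 6 at an unadjusted p under 0.05, all lower (2.78% of all genes). That count was 3 without the pool by day. Egr1, a zinc finger factor chosen after its values were seen, was at 27.2, 21.2 and 11.6 CPM by day and 8.02, 9.13 and 6.76 CPM by night.

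**Figure D4:**
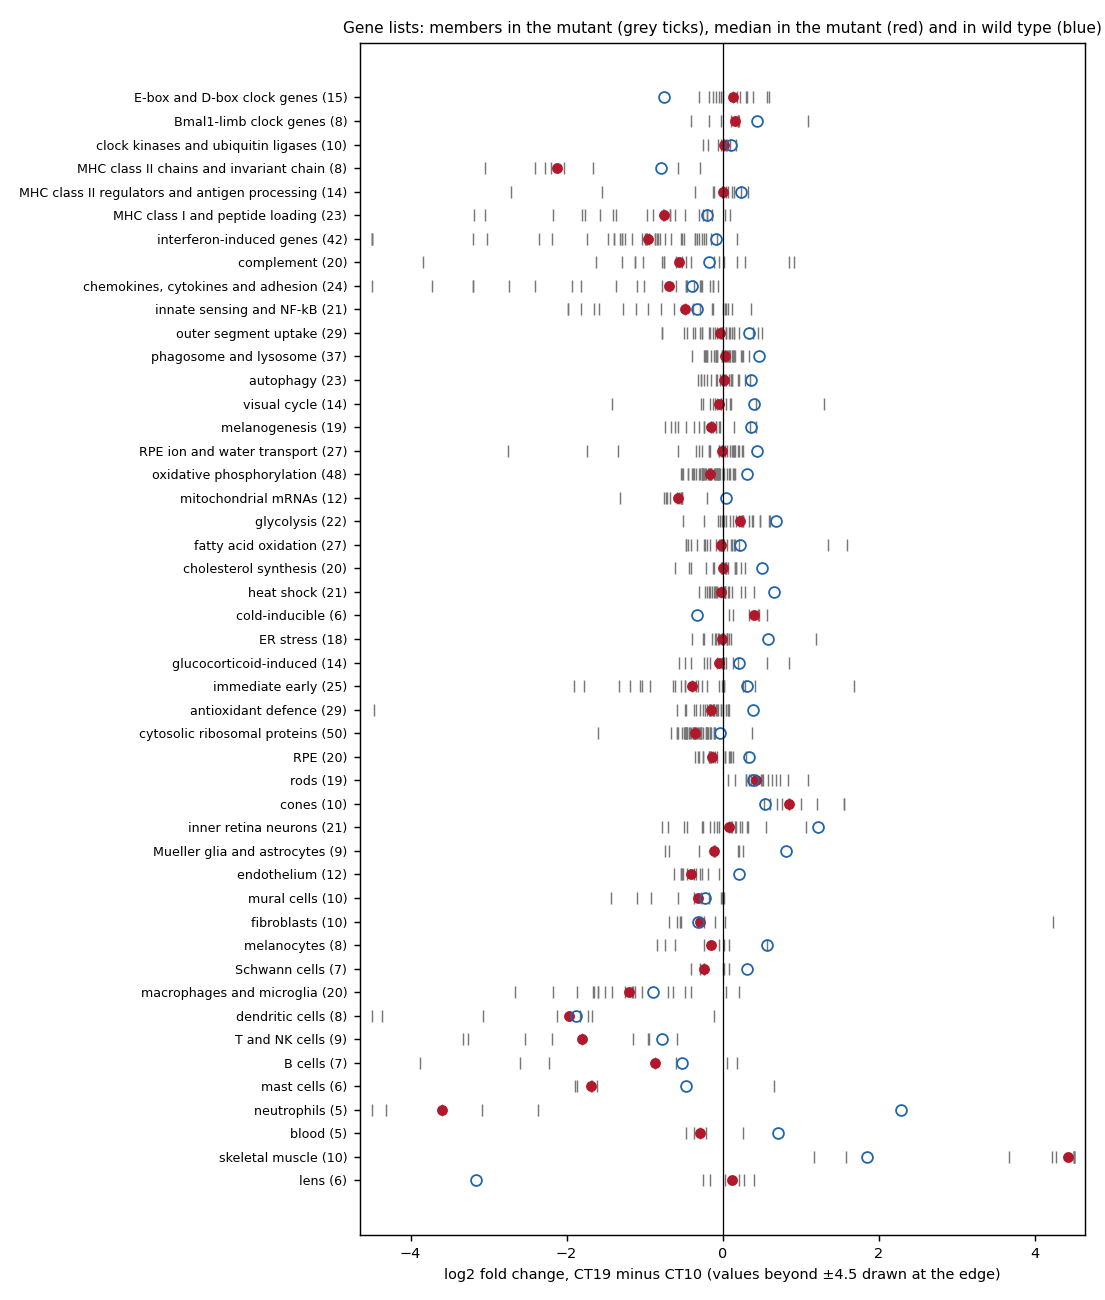
Log2 fold change, CT19 minus CT10, of every tested member of 47 gene and marker lists in the mutant (grey ticks), with the median in the mutant (red) and in wild type (blue rings). The number tested is in brackets, and values past 4.5 in size are drawn at the edge. Class II, interferon and leukocyte lists have medians below 0, cones and skeletal muscle above 0, and the RPE's own lists lie near 0.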

How the data were processed

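The values are raw read counts per gene as the authors deposited them, whole numbers for 54232 Ensembl identifiers, of which 54079 matched a symbol. Trimmomatic 0.32, HISAT2 2.1.0, Cufflinks and HTSeq 0.11 with build GRCm38.p6 are named in the submitters' processing notes, but neither annotation release nor strand setting, so genes that overlap another (among those named, also Dbp, H2-DMa, Ciita, Nlrc5, Cxcl10, Opn1sw, Pmel and 4933429O19Rik) and near-identical families (Gbp, Irgm, immunoglobulins) are uncertain. Counts were fitted with edgeR 4.0.16 (R 4.3.3), TMM scaling and filterByExpr (minimum count 10, 20275 genes kept). One robust quasi-likelihood model of 8 group means over 24 libraries left 16 residual degrees of freedom, and p-values were adjusted by Benjamini-Hochberg over all genes, threshold 0.05. Intervals are 95% from the fit. The steps were run on simulated counts with the same spread for every gene, smaller than that of these data. Changes were placed only in well-counted genes there, so that run cannot tell how genes of low count or wide spread fare. No pair of libraries within mutant CT10 or CT19 repeated another (chi-square per degree of freedom 41.5 to 178), and pairs across times were not compared.

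Named genes are the 10 of smallest p in each direction with at least 5 CPM, all clock and class II list members, the 2 members of highest CPM in every other list, and the genes of at least 5 CPM that passed the interaction. Some of these are not reported here. The comparison, its 28 gene lists and its 19 marker lists were chosen with earlier results of these data known. Alternatives were RLE scaling, DESeq2 1.42.0, other filters on low counts, fewer libraries, a replicate block and leaving out each library. Promoters are RefSeq windows on GRCm38.p6, found for 98 of 143 named genes. Gene coordinates are from GENCODE on GRCm38.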

Additional observations from a re-analysis of the deposited data

Results flagged for a closer look

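The change from CT10 to CT19 differed between the mutant and wild type, by the interaction test of edgeR with Benjamini-Hochberg adjustment, for 7 genes. The interaction was log2 4.63 for Ciart, 2.56 for Per2, 1.96 for Per3, 1.74 for Dbp and 1.38 for Nr1d1, clock genes that fell from CT10 to CT19 in wild type. It was log2 -1.96 for Rasl11a, which rose at CT19 in wild type, and 6.28 for the pseudogene Gm9176, at or under 5.65 CPM in these 12 libraries.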

How the results depend on the processing

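Between CT10 and CT19 in the mutant, RLE scaling, a floor of 5 CPM, the 6 or the 12 mutant libraries alone and the single-eye libraries alone each called 0 genes, as in the report. DESeq2 called 24 (all lower), no filter on low counts 171 (74 higher, 97 lower), and fits without a library 0 to 8. Without number 2 of CT10 these were 8 lower genes (H2-Aa, Iigp1, Cd74, Ighg1, Irgm1, Psmb8, H2-Eb1 and Tap1), and without number 2 of CT19 it was Irgm1. For the interaction, RLE scaling, the 5 CPM floor and the 12 libraries alone each called 7 genes, DESeq2 called 1.3e+02 (96 positive, 38 negative), no filter 538, and fits without a library 3 (without number 4 of mutant or of wild type CT10) to 20 (without number 2 of mutant CT19). Ciart, Nr1d1 and Dbp passed in all 12 of those fits. Among the 143 named genes, no value that passed in the report or in an alternative changed direction between them. In the mutant contrast the report had 0 called genes to compare. Genes called only under an alternative and not named were not checked for direction. The cause of the moved counts was not tested.

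With a replicate block on the numbers, 1 gene passed in the mutant (H2-Aa, adjusted p 0.0381 in edgeR's test) and 4 in the interaction (Ciart, Nr1d1, Rasl11a and Pmel). The numbers were not taken to pair libraries: same-numbered mutant libraries deviated from their group means together with r across genes of 0.422, 0.131 and -0.028, and the pool of CT10 matched number 4 of CT19 best (0.216). The common biological coefficient of variation was 0.425 with 3 libraries a group, and what sizes of change this could miss was not tested.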
